A study of Mus musculus with 10 samples.

Results

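Transcripts of 10 amino acid transporter genes were followed in mouse B cells: Slc7a5, Slc7a6, Slc7a11, Slc3a2, Slc7a1, Slc1a4, Slc1a5, Slc38a1, Slc38a2 and Slc43a1. They were taken by name, and all 10 were present among the 17658 genes of the deposited table. B cells of C57BL/6 mice aged 10 weeks, either Nr4a1+/+ (wild type) or Nr4a1-/- (knockout), came from spleen and lymph node and were enriched by magnetic removal of other cells. Each genotype had 1 library without stimulation and 4 libraries, lettered A to D, taken 2 hours into treatment with anti-IgM at 10 µg/mL, which crosslinks the B cell antigen receptor. Nothing in the labels says whether the letters are separate mice, or whether cells of several mice were pooled, so the p-values below measure the spread between these libraries. By the series' own statement, the question was which genes induced by stimulation are expressed differently between the genotypes.

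Amino acid carriers of the plasma membrane fall into a few types. Slc3a2 (4F2hc or CD98 heavy chain) is a glycoprotein that carries no amino acid itself. It is joined by a disulfide bond to a light chain of the Slc7 family, which does the transport, and brings it to the cell surface. Slc7a5 (LAT1) is the light chain for large neutral amino acids such as leucine, Slc7a6 (y+LAT2) exchanges cationic for neutral amino acids, and Slc7a11 (xCT) brings in cystine in exchange for glutamate. Slc7a1 (CAT1) carries arginine and lysine without a heavy chain. Slc1a5 (ASCT2) and Slc1a4 (ASCT1) are sodium-dependent exchangers of small neutral amino acids, Slc1a5 being a main route for glutamine. Slc38a1 (SNAT1) and Slc38a2 (SNAT2) bring in glutamine and alanine together with sodium, and Slc43a1 (LAT3) is a uniporter of large neutral amino acids. Lymphocytes that are activated and start to grow are known to raise several of these carriers, and leucine and arginine entering through them feed the mTORC1 kinase, while the transcription factor Atf4 raises many of the carrier genes when amino acids run short.

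Promoter windows were read for the members to set sequence features beside the values. The RefSeq promoter table (GRCm38.p6, the assembly also called mm10) held 9 windows of 300 bases for 7 of the 10 members. It had none for Slc7a5, Slc1a5 and Slc38a1. The 3 short motifs were searched on both strands: TGATGNAA, the core of the C/EBP-ATF response element to which Atf4 binds; TGACNNNGC, the core of the antioxidant response element; and CACGTG, the E-box bound by Myc and related factors. Of all 32851 windows in the table, 3.97% held the first, 12.4% the second and 7.15% the third. The first was found in Slc7a11, with 2 matches, and in Slc1a4, with 1. The second was found in Slc7a1 (1 of its 2 windows), Slc7a6, Slc38a2 and Slc43a1, and the third in Slc43a1. The motifs can share letters, though no matches overlapped in these windows. The Slc3a2 window held none of the 3. It opens at a start site inside the gene. So do the windows of Slc7a11, Slc43a1 and Slc7a6 and 1 of the 2 windows of Slc7a1. The windows of 3 genes are shown from 250 bases before to 20 bases after the start site, because Slc1a4 and Slc3a2 rose with anti-IgM and Slc7a11 did not. They lie on the minus strand at chr3:50443594-50443863 for Slc7a11, chr11:20332694-20332963 for Slc1a4 and chr19:8713878-8714147 for Slc3a2. Capitals mark matches to the C/EBP-ATF core on either strand.
Slc7a11: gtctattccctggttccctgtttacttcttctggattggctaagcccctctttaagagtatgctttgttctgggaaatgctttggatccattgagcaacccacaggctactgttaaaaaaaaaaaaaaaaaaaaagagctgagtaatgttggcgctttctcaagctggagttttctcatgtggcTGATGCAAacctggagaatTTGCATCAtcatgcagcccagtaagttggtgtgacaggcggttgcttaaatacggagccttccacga
Slc1a4: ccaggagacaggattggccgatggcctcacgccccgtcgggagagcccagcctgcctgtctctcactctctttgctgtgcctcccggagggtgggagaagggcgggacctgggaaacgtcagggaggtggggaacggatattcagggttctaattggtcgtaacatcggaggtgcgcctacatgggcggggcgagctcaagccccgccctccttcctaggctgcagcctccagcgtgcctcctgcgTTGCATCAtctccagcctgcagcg
Slc3a2: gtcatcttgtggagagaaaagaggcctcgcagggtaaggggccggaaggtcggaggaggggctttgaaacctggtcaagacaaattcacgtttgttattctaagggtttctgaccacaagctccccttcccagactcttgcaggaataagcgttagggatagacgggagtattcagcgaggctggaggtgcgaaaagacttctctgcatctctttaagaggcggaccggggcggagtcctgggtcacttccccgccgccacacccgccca
In Slc7a11 the matches begin at positions -66 and -47 from the start site, on opposite strands. In Slc1a4 the match begins at position -4 and runs across the start site. A match of letters is a description of the window and not evidence of a bound factor.

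All levels are in FPKM, that is, fragments divided by transcript length and by library total, as the authors deposited them. Being set per length, the levels can be compared between genes. The table carries no totals, so the number of fragments behind a value is not known. Its columns summed to between 557214 and 571784 FPKM in the stimulated libraries, to 595500 in the unstimulated library labelled knockout and to 674961 in the unstimulated wild-type library. Nr4a1 itself was at 126 FPKM in each unstimulated library and, with anti-IgM, at 808 ± 47.2 FPKM in wild type (SD, n = 4) and 702.1 ± 44.6 FPKM where the label was knockout (SD, n = 4). The transcript was therefore still counted in the latter, the label could not be checked from it, and directions below are between libraries as labelled. All 9 B cell markers were expressed, and their sum was lower after anti-IgM, at 4519 to 4676 FPKM in the unstimulated libraries, 2075 to 2146 FPKM in stimulated wild type and 2030 to 2181 FPKM in stimulated libraries labelled knockout. By limma 6 of the 9 were called lower with anti-IgM, and the highest of them, Cd79a, ranged from 469 to 1229 FPKM. Of the 9 T cell markers, only Cd5, which some B cells also carry, reached a mean of 1 FPKM. The 9 summed to 3.18 to 3.25 FPKM in the unstimulated libraries. The sums were 7.78 to 9.13 FPKM in stimulated wild type and 9.28 to 10.45 FPKM in stimulated libraries labelled knockout. By limma Cd5 was called higher with anti-IgM (log2 change 1.97) and, after it, in the libraries labelled knockout (0.24). Myeloid markers (8 of 10 at a mean of at least 1 FPKM) summed to 82.2 to 96.4 FPKM in the unstimulated libraries, 44.8 to 144 FPKM in stimulated wild type and 28.0 to 105 FPKM in stimulated libraries labelled knockout. Erythroid markers, led by Tfrc, which activated lymphocytes also express, summed to 89.0 to 191 FPKM, 194 to 250.3 FPKM and 194 to 239 FPKM in the same order. Tfrc rose and carried that sum, while the other 3 of the 4 tested erythroid markers were called lower with anti-IgM. The 6 plasma cell markers summed to 358 to 379 FPKM, 1095 to 1152 FPKM and 1170 to 1231 FPKM, carried by Irf4, which activated B cells also express, with 2 of the 6 called higher and 2 lower and a median log2 change of -0.010. The part of these shifts in the transporter results was not tested. In bulk samples such as these, fewer cells of a type and less RNA per cell cannot be told apart.

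**Figure D1:**
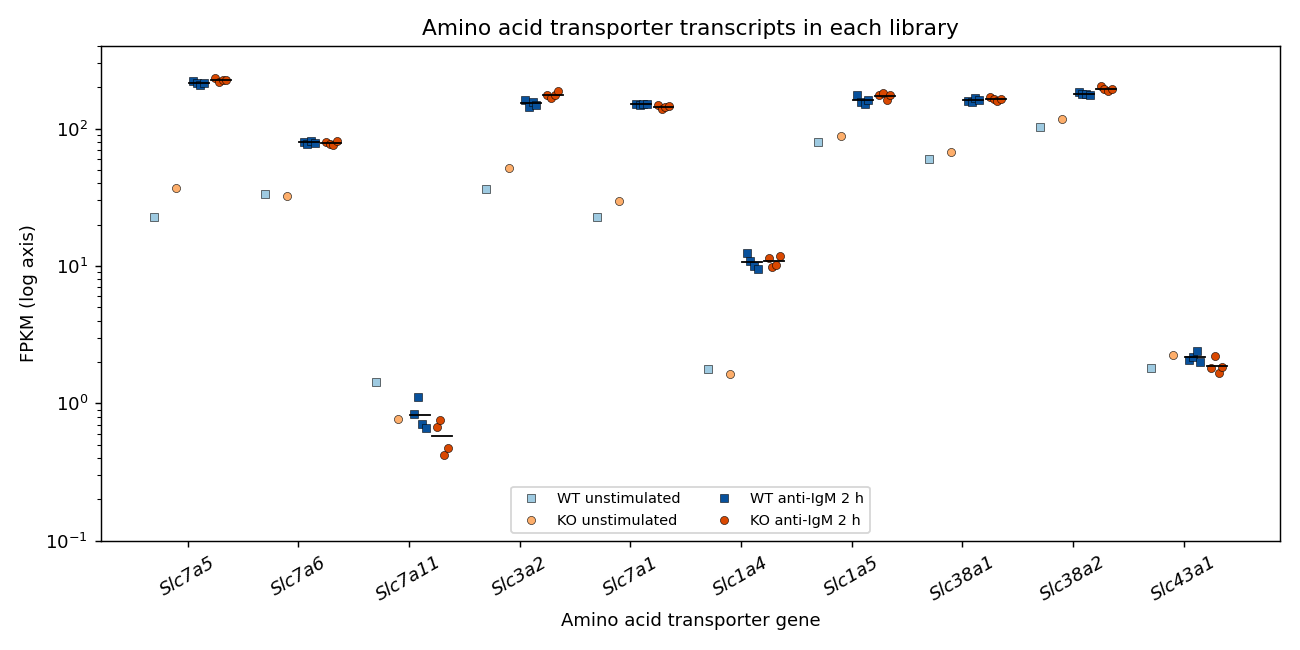
FPKM of each transporter gene in every library, on a log axis: squares are wild type and circles the libraries labelled knockout, light symbols 1 unstimulated library, dark symbols 4 libraries after 2 hours of anti-IgM, and bars their means. In all, 8 genes sit higher in all stimulated libraries than in both unstimulated ones, while Slc43a1 and Slc7a11 stay near 2 and 1 FPKM.

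Most of these transporters were higher after 2 hours of anti-IgM, and the order of their levels changed. The labels give no time in culture for the unstimulated libraries. Here and below, the part of time in culture in the changes with anti-IgM was not tested. In the unstimulated libraries the sodium-coupled carrier Slc38a2 was the most abundant (103 FPKM in wild type and 117 FPKM labelled knockout), followed by Slc1a5 and Slc38a1, and Slc7a5 stood below them at 22.9 and 36.7 FPKM. After anti-IgM Slc7a5 was the most abundant in both genotypes, at 214 ± 6.40 FPKM in wild type and 226 ± 5.95 FPKM labelled knockout (SD, n = 4 each), with every library above every value of Slc38a2, the next in order. In stimulated wild type Slc38a2, Slc1a5, Slc38a1, Slc3a2 and Slc7a1 came next, with means from 179 down to 150.5 FPKM. Among these, each range overlapped that of the next, so the order of neighbours is not resolved. Slc38a2 still lay wholly above Slc38a1, Slc3a2 and Slc7a1, and Slc38a1 wholly above Slc7a1. Slc7a6 at 79.4 ± 2.00 FPKM, Slc1a4 at 10.7 ± 1.26 FPKM, Slc43a1 at 2.16 ± 0.191 FPKM and Slc7a11 at 0.828 ± 0.201 FPKM (SD, n = 4 each) followed without overlap. The 10 genes together made up 0.0539% and 0.0718% of the summed FPKM of the unstimulated wild-type library and the one labelled knockout, and 0.190% to 0.216% of the stimulated libraries.

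The response was tested with limma across all genes, on log2(FPKM + 1), for the 8 stimulated against the 2 unstimulated libraries with genotype as a term. With 1 unstimulated library a genotype, the fit assumes that the unstimulated libraries vary like the stimulated ones. Testing covered the 10225 genes whose mean reached 1 FPKM. A call needed a Benjamini-Hochberg adjusted p below 0.05 together with a log2 change no smaller than 1 in either direction. Of the 10 members 9 were tested, and 6 of those 9 were called higher. Of all tested genes 7.94% were called higher by this rule. The members and the lists below were chosen with earlier results of these data known, so enrichment was not tested. By limma 0 of the 9 were called lower, and 0 were lower at an unadjusted p under 0.05, against 12.4% of all tested genes called lower. The members' median log2 change was 1.33, that of all tested genes -0.17. The latter depended on the scale, being -0.031 as TPM (each library set to the same sum), -0.017 by median of ratios and -0.0022 under quantile normalization. The calls over all genes, 812 higher and 1266 lower, became 1102 and 1071, 1050 and 906, and 965 and 921 under those scalings, where 7, 7 and 6 members were called. Without a minimum change, 8 of the 9 members passed, all of them higher.

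Among the heavy chain and its light chains, the light chain Slc7a5 (chr8:121881146-121907686) moved furthest. It went from 22.9 FPKM to 223, 213, 208 and 214 FPKM in wild-type libraries A to D, and from 36.7 FPKM to 232, 218, 226 and 227 FPKM in those labelled knockout. Its log2 change was 2.88 (SE 0.0967, limma adjusted p = 4.55e-10). All 8 stimulated libraries lay far above both unstimulated ones. The heavy chain Slc3a2 (chr19:8706882-8723369) went from 36.2 FPKM to 162, 143, 157 and 148 FPKM in wild type, and from 51.7 FPKM to 176, 166, 175 and 187 FPKM in those labelled knockout. The heavy chain thus rose by 1.89 on the log2 scale (SE 0.0700, limma adjusted p = 8.86e-10). Slc7a6 (chr8:106168219-106198714) rose less, by 1.24 (SE 0.0404, limma adjusted p = 3.75e-10). It went from 33.4 and 32.1 FPKM, wild type and labelled knockout, to between 75.6 and 81.9 FPKM over the 8 stimulated libraries.

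The make-up of the light chain transcripts shifted towards Slc7a5. In all, 6 Slc7 light chains known to join Slc3a2 were in the table (Slc7a5, Slc7a6, Slc7a7, Slc7a8, Slc7a10 and Slc7a11). Before stimulation, Slc7a6 supplied 56.4% and Slc7a5 38.6% of their summed FPKM in wild type. In the library labelled knockout Slc7a5 already led, with 50.05% against 43.8% for Slc7a6. After anti-IgM the share of Slc7a6 was between 24.7% and 27.9%, and that of Slc7a5 was between 70.8% and 74.1%. Slc7a7 stood at 1.23 to 4.06 FPKM over the 10 libraries, and Slc7a8 and Slc7a10 stayed below 1 FPKM. The light chain sum was 59.3 and 73.3 FPKM before and 293 to 316 FPKM after stimulation. In each library it exceeded the Slc3a2 transcript. The ratio of light chain sum to Slc3a2 was 1.64 in the unstimulated wild-type library and 1.42 in the one labelled knockout. After anti-IgM it was 1.89, 2.07, 1.87 and 2.00 in wild-type libraries A to D, and 1.80, 1.81, 1.74 and 1.68 in those labelled knockout, so the 2 stimulated groups did not overlap in this ratio of transcripts. These ratios are given as a description, without a test.

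**Figure D2:**
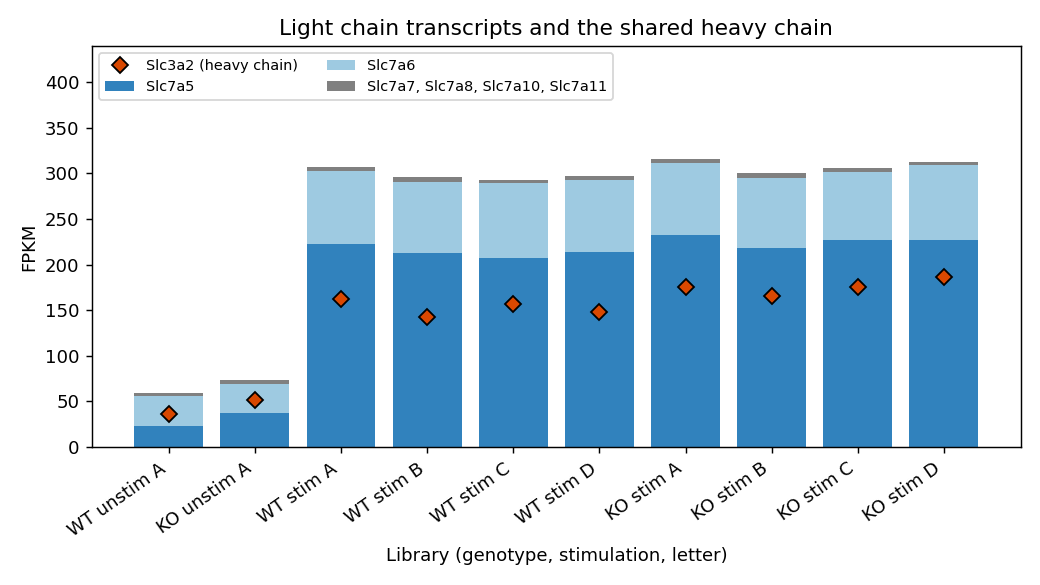
Stacked bars give the FPKM of the Slc7 light chain transcripts in each library (Slc7a5, Slc7a6 and the sum of the other 4), and diamonds that of the heavy chain Slc3a2. The Slc7a5 part grows from 22.9 and 36.7 FPKM in the unstimulated libraries to 208 FPKM or more in all stimulated ones, and the diamonds lie between 143 and 187 FPKM after stimulation.

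The cystine carrier Slc7a11 (chr3:50364936-50499087) stayed low and did not rise. Wild type had 1.44 FPKM before stimulation and 0.83, 1.11, 0.71 and 0.66 FPKM after it, and the libraries labelled knockout had 0.77 FPKM and then 0.67, 0.75, 0.42 and 0.47 FPKM. All 8 stimulated libraries lay below the unstimulated library of their own genotype. Its mean of 0.783 FPKM was under the minimum for testing. Without that minimum the limma log2 change was -0.30 (SE 0.110, adjusted p = 0.0453), on a scale that understates changes near 1 FPKM, and at this level the log2 values of replicate libraries had a median SD of 0.134, against 0.0472 for genes at 100 to 300 FPKM. Library B had the highest stimulated value of Slc7a11 in each genotype. The same libraries had the highest stimulated values of the macrophage and neutrophil gene Lyz2, which ranged from 15.8 to 115 FPKM over the 10 libraries, and the part of myeloid cells in the Slc7a11 signal was not tested. Of the promoters printed above, those of Slc7a11, which did not rise, and of Slc1a4, which rose, held matches to the C/EBP-ATF core, and that of Slc3a2, which rose, held none. Whether such matches bear on the rise was not tested.

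The arginine and lysine carrier Slc7a1 (chr5:148327410-148399904) rose from 22.8 FPKM to 152, 148, 152 and 150 FPKM in wild type and from 29.7 FPKM to 148, 139, 142 and 146 FPKM in the libraries labelled knockout. Its log2 change was 2.45 (SE 0.0747, limma adjusted p = 2.51e-10). With a pseudocount of 0.1 it was 2.49, below the 2.58 of Slc1a4, so the order of these 2 genes depends on the pseudocount.

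The neutral amino acid exchangers differed in level more than in direction. Slc1a4 (chr11:20302180-20332713) was low before stimulation, with 1.78 FPKM (wild type) and 1.63 FPKM (labelled knockout). Stimulated wild-type libraries had 12.4, 10.9, 9.99 and 9.53 FPKM, in the order A to D, and the others 11.4, 9.90, 10.1 and 11.8 FPKM, so the genotypes overlapped. The ratio of the stimulated mean to the unstimulated value was 6.01 for wild type and 6.62 for libraries labelled knockout, beside 6.59 and 4.84 for Slc7a1. The log2 change of 2.11 (SE 0.0930, limma adjusted p = 3.28e-09) is held down by the pseudocount of 1, and was 2.58 with a pseudocount of 0.1. Slc1a5 (chr7:16781334-16798274) was already at 79.4 and 88.1 FPKM and reached 152 to 176 FPKM in wild type and 162 to 182 FPKM in the libraries labelled knockout. Its log2 change was 0.99 (SE 0.0571, limma adjusted p = 2.75e-08), just under the minimum of 1, and passed that minimum in 7 of the 22 alternatives that kept it, with changes from 0.80 to 1.17 overall.

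The sodium-coupled carriers, neighbours on chromosome 15, were already abundant and rose by different amounts. Slc38a1 (chr15:96571418-96643438) went from 60.3 FPKM to 159, 156, 166 and 162 FPKM in wild type and from 67.9 FPKM to 171, 165, 159 and 164 FPKM in the libraries labelled knockout (log2 change 1.33, SE 0.0435, limma adjusted p = 3.86e-10). Slc38a2 (chr15:96687392-96699728) went from 103 FPKM to 184, 179, 178 and 175 FPKM in wild type and from 117 FPKM to 206, 195, 187 and 194 FPKM in the libraries labelled knockout. Its log2 change was the smallest among the 8 members that passed the p threshold, at 0.76 (SE 0.0409, limma adjusted p = 1.56e-08), with an interval at 95% from 0.67 to 0.85, so it passed the p threshold and not the minimum change. No stimulated library of either gene overlapped an unstimulated one.

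The uniporter Slc43a1 (chr2:84838855-84863586) stayed low. Wild type had 1.82 FPKM before stimulation and 2.05, 2.19, 2.42 and 1.99 FPKM after it, and the libraries labelled knockout had 2.25 FPKM and then 1.81, 2.20, 1.66 and 1.84 FPKM. Stimulated and unstimulated values overlapped, and the log2 change was -0.0078 (95% interval from -0.24 to 0.22, limma adjusted p = 0.948). Its sign turned with the scaling, and it reached 0.34 after quantile normalization (adjusted p = 0.00511).

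By fixed lists, other genes of amino acid handling moved in different ways after anti-IgM. Of 40 further plasma membrane carriers, 25 were in the table and 8 were tested, with 0 called higher by limma (4 at an unadjusted p under 0.05) and 2 lower. The 2 were Slc43a2 (LAT4), a uniporter related to Slc43a1, which went from 12.7 and 17.6 FPKM to means of 1.96 and 1.89 FPKM (log2 change -2.45, limma adjusted p = 6.53e-09), and Slc38a6 (-1.28, limma adjusted p = 4.79e-07). Slc38a6 went from 4.11 FPKM (wild type) and 4.4 FPKM (labelled knockout) to means of 1.14 and 1.21 FPKM. Its call was lost with a pseudocount of 5 (-0.58) and after quantile normalization (-0.90). All 11 lysosomal carriers were tested, and limma called 0 lower (6 at an unadjusted p under 0.05) and 3 higher: Slc15a3, a peptide and histidine carrier (from 14.2 and 17.0 FPKM to 126 ± 5.67 and 139 ± 6.55 FPKM, SD, n = 4 each), Mfsd12 (log2 change 1.54) and Slc17a5, the last named after its values were seen. Their median log2 change was -0.25. The Mfsd12 call was lost with a pseudocount of 5 (0.97).

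The list around Atf4, the transcription factor of the amino acid and stress response, was the one with most calls. Of its 27 genes 24 were tested, and limma called 16 higher and 0 lower (1 lower at an unadjusted p under 0.05). Of all tested genes 7.94% were called higher and 12.4% lower. The list had a median log2 change of 1.33, the same as that of the transporters. Atf4 rose from 206 and 237 FPKM to 505 ± 6.74 and 546 ± 22.3 FPKM (SD, n = 4 each), by 1.24 on the log2 scale (limma adjusted p = 5.80e-10). The largest rises of the list were Mthfd2, an enzyme of mitochondrial folate metabolism (2.30, limma adjusted p = 4.83e-11), and Trib3, a pseudokinase (2.27, limma adjusted p = 1.57e-09). Of the mTORC1 list, 36 of 39 genes were tested, with 1 called higher, the GTPase Rragd (1.56, limma adjusted p = 3.23e-09), and 3 lower, the leucine sensor relative Sesn1 (-2.47, limma adjusted p = 3.30e-11), Lamtor2 (-1.22, limma adjusted p = 1.02e-07) and Nprl2, the last named after its values were seen. Rragd went from 1.58 FPKM (wild type) and 1.45 FPKM (labelled knockout) to means of 6.74 and 6.13 FPKM. Its call was lost with a pseudocount of 5 (0.81). Of the glutamine and glutathione list, 16 of 18 genes were tested. Higher were Txnrd1, thioredoxin reductase (1.33), and Gclc, the catalytic subunit that starts glutathione synthesis (1.24). Lower were Gpx4 (-1.38), Gpx1 (-1.27) and Ggct, the last again named after its values were seen.

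Likeness of pattern was measured by Pearson's r of log2 values over the 10 libraries, which mainly reflects the step between unstimulated and stimulated libraries that all these genes share. For Slc7a5 the nearest genes outside the members were Urb1 (r = 0.9996), Rrp12 (0.9995) and Nop2 (0.9995), all of them known for ribosome production. For Slc3a2 they were Nfkb1 (0.998), Anp32b (0.998) and Cbfb (0.998).

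The genotypes were next compared after anti-IgM, over 4 against 4 libraries. Of the 9 tested members 2, Slc3a2 and Slc38a2, were called higher in the libraries labelled knockout at a limma adjusted p under 0.05, and 0 were called lower (3 were higher and 1 lower at an unadjusted p under 0.05). Of all tested genes 3.91% were called higher and 5.81% lower. That split moved with the scaling: 400 higher and 594 lower genes became 381 and 481 as TPM, and turned to 535 and 401 with median-of-ratios scaling and 478 and 438 after quantile normalization, while the median change of all tested genes stayed between -0.024 and 0.0084. The members' median difference was 0.034.

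Slc3a2, the heavy chain, was at 162, 143, 157 and 148 FPKM in wild type and at 176, 166, 175 and 187 FPKM in the libraries labelled knockout, which lay above all wild-type libraries. The means were 152.5 ± 8.71 and 176 ± 8.36 FPKM (SD, n = 4 each), the latter 115% of the former. The log2 difference was 0.21 (SE 0.0462, 95% interval from 0.10 to 0.31, limma adjusted p = 0.0222). The call was lost in 6 of 19 alternatives, namely without the expression minimum and when wild-type library B or D or library A, C or D labelled knockout was left out, with adjusted p up to 0.0700 and differences between 0.18 and 0.24 throughout. Slc38a2 was at 175 to 184 FPKM in wild type and 187 to 206 FPKM in the libraries labelled knockout, again without overlap, a log2 difference of 0.12 (SE 0.0311, 95% interval from 0.054 to 0.19, limma adjusted p = 0.0357). This call was lost in 10 of 19 alternatives, with adjusted p from 0.00866 to 0.0994, among them rescaling to TPM, quantile normalization and leaving out 6 single libraries (wild-type B, C or D, or A, B or D labelled knockout).

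The remaining 7 tested members did not pass. Slc7a1 separated the groups in the other direction, at 148 to 152 FPKM in wild type and 139 to 148 FPKM in the libraries labelled knockout, with a log2 difference of -0.067 (95% interval from -0.12 to -0.011, limma adjusted p = 0.144); it passed after quantile normalization (adjusted p = 0.0454). In all, 3 members had no overlap between the groups, Slc3a2 and Slc38a2 with higher values labelled knockout and Slc7a1 with lower ones, where 5.96% and 9.57% of all tested genes showed this. The light chain Slc7a5 overlapped by 1 wild-type library (difference 0.075, 95% interval from 0.011 to 0.14, limma adjusted p = 0.153). Slc1a5 differed by 0.11 (95% interval from -0.0049 to 0.22), Slc38a1 by 0.034 (from -0.032 to 0.099), Slc7a6 by -0.015 (from -0.085 to 0.054), Slc1a4 by 0.015 (from -0.17 to 0.20) and Slc43a1 by -0.14 (from -0.31 to 0.037), with limma adjusted p of 0.248 or more. The intervals were widest for Slc1a4 and Slc43a1, the least abundant of these. Slc7a11, tested without the expression minimum, differed by -0.21 (SE 0.0979, limma adjusted p = 0.360).

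**Figure D3:**
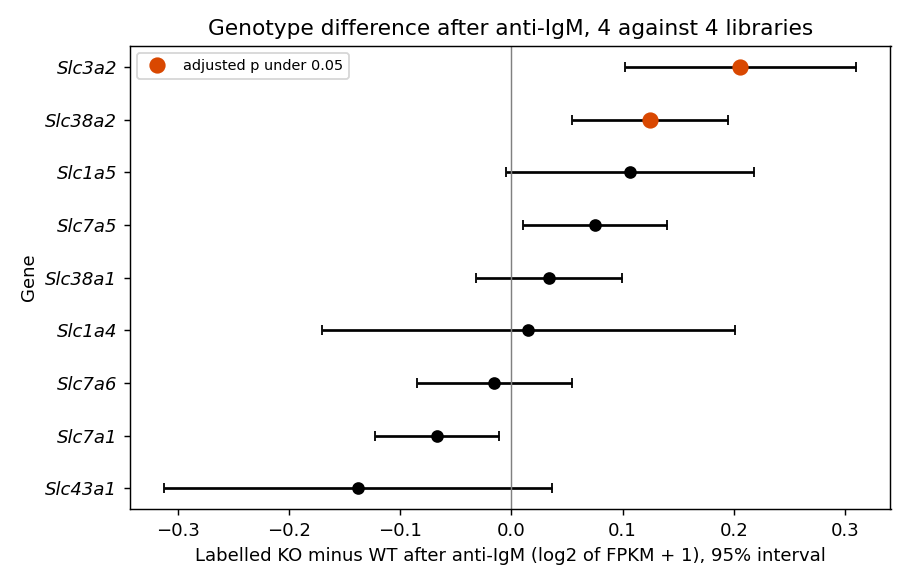
Difference between stimulated libraries labelled knockout and wild type for each tested transporter, on the log2(FPKM + 1) scale, with the 95% interval from limma, 4 libraries a group. Slc3a2 (0.21) and Slc38a2 (0.12), drawn in orange, passed the adjusted threshold, and the other 7 did not.

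In the same comparison 3.91% of all tested genes were called higher in the libraries labelled knockout and 5.81% lower. The Atf4 list had 2 of 24 tested genes called higher and 1 lower. The mTORC1 list had 0 of 36 called higher and 3 lower (0 and 9 at an unadjusted p under 0.05). No plasma membrane or lysosomal carrier outside the members was called by limma, of 8 and 11 tested, and 1 of each was higher at an unadjusted p under 0.05. From the Atf4 list, Ddit4, an inhibitor of mTORC1 (0.34, limma adjusted p = 0.0432), and Atf4 (0.11, limma adjusted p = 0.0495) were higher in the libraries labelled knockout, and Cebpg, a partner of Atf4, was lower (-0.19, limma adjusted p = 0.0447), each call being lost in 9 to 13 of 19 alternatives. From the mTORC1 list 3 genes were lower: Flcn, folliculin, which acts on the Rag GTPases (50.3 ± 1.78 FPKM in wild type and 35.7 ± 1.37 FPKM labelled knockout, SD, n = 4 each; log2 difference -0.48, limma adjusted p = 4.58e-05, kept in 19 of 19 alternatives), Tbc1d7 (-0.30, limma adjusted p = 0.0247, lost in 7 of 18) and Mtor, the last named after its values were seen. From the glutamine and glutathione list, Glud1, glutamate dehydrogenase, was lower (-0.13, limma adjusted p = 0.0262), a call lost in 10 of 19 alternatives.

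The response of each genotype was then set side by side. Before stimulation, comparing 1 library with 1, the library labelled knockout was higher for 7 of the 9 tested members, where 59.2% of all tested genes were higher in it. The largest log2 differences were 0.66 for Slc7a5 (22.9 against 36.7 FPKM), 0.50 for Slc3a2 (36.2 against 51.7 FPKM) and 0.37 for Slc7a1 (22.8 against 29.7 FPKM). The median of all tested genes was 0.067 and the SD of their differences 0.38. There is no replicate check of these differences. After stimulation the libraries labelled knockout stood at 105.4% of the wild-type mean for Slc7a5 and 95.5% for Slc7a1. The mean of the stimulated libraries was 9.37 times the unstimulated value for Slc7a5 in wild type and 6.16 times in the libraries labelled knockout, 6.59 and 4.84 times for Slc7a1, and 4.21 and 3.40 times for Slc3a2. The rise of Slc1a4 (6.01 and 6.62 times) and Slc7a6 (2.37 and 2.45 times) was the larger in the libraries labelled knockout.

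The difference in response was tested with an interaction term in limma over all 10 libraries. The spread there comes from the stimulated libraries alone, and each lone unstimulated library is assumed to vary like them. Slc7a5 (-0.58, SE 0.0646, 95% interval from -0.73 to -0.44, limma adjusted p = 0.00182) and Slc7a1 (-0.43, SE 0.0561, 95% interval from -0.56 to -0.31, limma adjusted p = 0.00254) had a smaller response in the libraries labelled knockout. These were 2 of 9 members called lower, where 14.7% of all tested genes were, and limma called 0 members higher (0 also at an unadjusted p under 0.05, with 3 lower) against 4.18% of all tested genes. A smaller response without regard to a call was seen for 7 of the 9 members and for 63.8% of all tested genes, so the members' count is close to that background. The median difference in response was -0.13 for the tested members and -0.096 for all tested genes. The latter moved to -0.27 as TPM, -0.023 by median of ratios and -0.0046 under quantile normalization. In the same order the difference was -0.76, -0.50 and -0.61 for Slc7a5 and -0.61, -0.35 and -0.41 for Slc7a1, larger than the shift in each case. The 427 genes called higher and 1504 called lower became 175 and 3455, 563 and 788, and 874 and 1207. For Slc3a2 the difference was -0.30 (SE 0.104, limma adjusted p = 0.0780). For Slc38a1 it was -0.13, for Slc1a5 -0.042, for Slc38a2 -0.050, for Slc43a1 -0.34, for Slc7a6 0.042 and for Slc1a4 0.095, with limma adjusted p of 0.188 or more. Both calls rest on the single unstimulated libraries, and a difference between genotypes there cannot be told apart from one between 2 libraries.

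**Figure D4:**
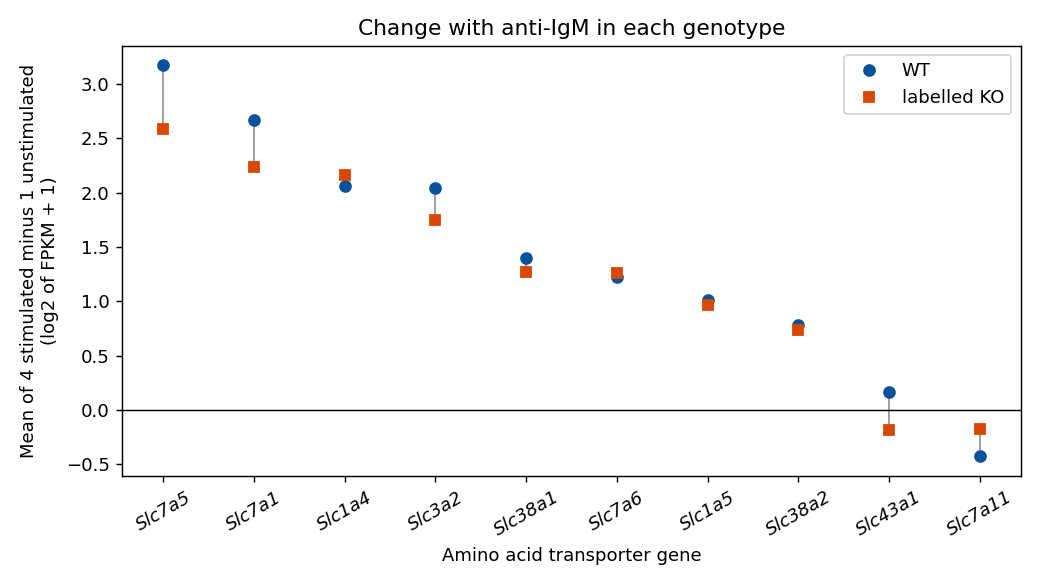
Change with anti-IgM in each genotype, as the mean log2(FPKM + 1) of 4 stimulated libraries minus that of 1 unstimulated library, for wild type (circles) and libraries labelled knockout (squares); no error is drawn, since the unstimulated value is a single library. The symbols are furthest apart for Slc7a5 (3.17 and 2.59) and Slc7a1 (2.67 and 2.24), and close for Slc1a4, Slc7a6, Slc1a5 and Slc38a2.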

How the data were processed

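Per the labels' protocols, 10 RNA libraries were made with a TruSeq stranded kit. The authors deposited 1 table of FPKM per gene with 2 decimals. The submitters' processing notes name STAR 2.4, RSEM 1.2.14 and mm10; which annotation or filters were used, and whether strand was, is not given in the sources used here. FPKM are not counts, so no count model was fitted. Values were transformed as log2(FPKM + 1), 10225 genes passed a minimum mean of 1 FPKM, and limma 3.58.1 in R 4.3.3 (lmFit, eBayes with trend, two-sided, Benjamini-Hochberg over all tested genes) gave the 3 fits: stimulation, genotype after stimulation and their interaction. The fits were tested on simulated data, in which every library was given the spread of the stimulated ones. Of simulated log2 changes of 0.5, 85.1% were recovered for stimulation, 88.1% for genotype and 44.8% for the interaction. False calls among the 10225 genes were 10, 5 and 7 in that order. No exon of a member overlaps another gene in GENCODE M21. Coordinates are from RefSeq (GRCm38.p6), and older symbols of list genes were matched through it.

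The members and lists were chosen with earlier results of these data known. Named genes are the members, Nr4a1, the 2 largest called rises and falls of each pathway list in the stimulation and genotype comparisons, the 3 genes most like Slc7a5 and Slc3a2, and the highest marker of each cell type. Alternatives were other pseudocounts (0.1, 5), filters (none, 5 FPKM), scalings (TPM, median of ratios, quantile), eBayes settings, the letter as a block, other sets of libraries, and each library left out. A planned comparison of the members' proteins was not run. The result of 1 list gene is not reported here.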

Additional observations from a re-analysis of the deposited data

Results flagged for a closer look

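The response to anti-IgM differed between the genotypes by the interaction term for Slc7a5 (-0.58 on the log2 scale, libraries labelled knockout minus wild type) and Slc7a1 (-0.43). Each rests on 1 unstimulated library a genotype. In 20 groups of 4 stimulated libraries (each member in each genotype) 0 held a library standing far from the other 3 by Dixon's test, where chance flags about 1 in 20 groups.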

How the results depend on the processing

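The number of members called with anti-IgM stayed between 6 and 8 in all 23 alternatives. The 2 members called between genotypes became 0 without the expression minimum, 1 after rescaling to TPM and 1 with eBayes without trend (Slc3a2 in both), while after quantile normalization the 2 were Slc3a2 and Slc7a1. It ranged from 0 to 2 when single libraries were left out, with 0 without wild-type library B or D, or A or D labelled knockout. The 2 called for a difference in response became 4 after rescaling to TPM, with Slc3a2 and Slc38a1 added, and stayed at 2 in the 17 other alternatives. Deviations of same-letter libraries correlated between -0.122 and 0.0445, and those of different letters between -0.0869 and 0.122. Only library B labelled knockout correlated best with its own letter. Correlations over all genes cannot decide whether libraries of the same letter share a source. With a replicate block 7 members were called with anti-IgM, 2 between genotypes and 2 for a difference in response, while over all genes the genotype calls went from 400 and 594 to 329 and 411, and the interaction calls from 427 and 1504 to 288 and 950.

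Small values changed sign. With anti-IgM, Slc43a1 changed by 0.12 as TPM, 0.11 by median of ratios, 0.34 under quantile normalization, 0.16 in wild-type libraries only, and between -0.18 and 0.16 with single libraries left out. Between genotypes, Slc7a6 differed by 0.020 with median-of-ratios scaling and by -0.035 to 0.00262 with libraries left out, and Slc1a4 by -0.033 to 0.082. The difference in response was -0.018 for Slc1a4 and -0.13 for Slc7a6 after rescaling to TPM, 0.040 for Slc1a5 and 0.031 for Slc38a2 with median-of-ratios scaling, and 0.00131 for Slc1a5 after quantile normalization. The cause of these changes was not tested. Over all genes, stimulation calls were 534 higher and 598 lower with a pseudocount of 5, 753 and 824 with a minimum mean of 5 FPKM, and 3188 and 4881 without a minimum change; interaction calls were 834 and 1575 without the expression minimum. Depth is not known, so precision is given only as the spread between libraries, which was widest for Slc7a11, Slc43a1 and Slc1a4.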
